A study of Mus musculus with 8 samples.

Results

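The transcripts described here belong to glycolysis, the pathway that splits glucose into pyruvate and lactate, and to the response to low oxygen. They were taken from a list of 38 genes, of which 35 could be read on the arrays, out of 18194 genes with a probe set of a single symbol. The list names genes by their function, and was drawn up when earlier results of these data were known. Expression was measured on 8 mouse arrays from Affymetrix, 2 for each of 4 kinds of CD4 helper T cell. The T follicular helper (Tfh) group was sorted by flow cytometry as CD4+ CXCR5+ cells from the spleens of C57BL/6 mice 7 days after keyhole limpet haemocyanin was given as an immunogen, and was stimulated again with an antibody to CD3 for 4 h before RNA was made. The labels give no age for these mice. The Th1, Th2 and Th17 groups were each grown in culture for 5 days, with antigen-presenting cells and the OT-II peptide, from naive CD4 cells of spleen and lymph node. The donors were OT-II mice, which carry a transgenic T cell receptor, on a C57BL/6 background, at 6 to 8 weeks of age, and the medium held the cytokines and blocking antibodies that steer cells to each type. The labels name no unstimulated group and no low-oxygen treatment, and the oxygen that the cells met is not given.

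Cells take up glucose, trap it as a phosphate with hexokinase, and break it down through a shared chain of enzymes that yields ATP and pyruvate. Lactate dehydrogenase turns pyruvate into lactate, and activated T cells are known to run this chain fast even where oxygen is plentiful. Hypoxia-inducible factor (HIF) raises many of the same enzymes, together with genes for blood vessel growth, protein folding and mitochondrial turnover; its Hif1a subunit is controlled largely as a protein, by prolyl hydroxylases that need oxygen, so that its transcript level says little of its activity.

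Within the list, 10 of 11 genes from glucose to the triose phosphates were read, as were 9 of 10 from the triose phosphates to lactate, 4 genes of glycogen and adenylate metabolism, 3 of oxygen sensing, and 9 of 10 other genes known to respond to hypoxia. Gpi1, Eno1 and Bnip3l were not analysed here, because no probe set was assigned to them alone. Ero1l was found under its alias Ero1a, and Gapdh was read through one of the manufacturer's control probe sets. All 35 passed the filter on low signal (a log2 value above 3.13 on at least 2 arrays), and 30 were above it on all 8 arrays. Eno2 passed only with its Tfh signals of 3.97 and 3.95, since Th17 replicate 1 (3.20) was the only cultured array above the filter. Ak4, Vegfa and P4ha2 lay below the filter on both Tfh arrays and passed through the cultured arrays alone. The calls of these genes given below are therefore not independent of the filter.

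Some properties of the arrays touch every comparison. The deposited log2 values of the Tfh arrays were shifted: over the 11179 genes tested, the median difference between Tfh and the mean of the cultured types was 0.84. The shift depended on signal, with a median of 1.30 for genes whose mean lay between 6 and 8, 0.63 between 10 and 12, and 0.04 over 14. Medians over groups of genes are therefore also given relative to the median gene, meaning after 0.84 is taken off, and each call was repeated on values where the arrays had been brought to the same median or had been quantile normalized, which moved the median gene to -0.35 and -0.17. Bringing arrays to the same median takes the same amount off every gene of an array, whereas the shift seen between 12 and 14 was 0.27. Lower calls made at equal medians alone for genes of high signal, such as Aldoa and Pkm, depend on that amount. The Tfh arrays were nearly alike, with 11 genes apart by more than 1 log2 unit, against 696 to 1435 between the arrays of a cultured pair. Nothing in the labels says that the 2 replicates of a group are separate animals or cultures; p-values here reflect only the spread among these samples, which may be technical. Source, activation, time and cell type changed together between Tfh and the cultured cells, and their parts cannot be told apart.

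Markers bore out the labels in part. Cxcr5 read 11.25 and 11.20 in Tfh and 3.34 to 8.12 in the cultured arrays. Ifng was highest in Th1 (15.39 and 15.07), Il4 in Th2 (15.20 and 15.57) and Il17a in Th17 (14.35 and 13.93). Bcl6, Pdcd1 and Icos were highest in Tfh, and Il5 and Il13 in Th2. Il21, however, was lower in Tfh (10.69 and 10.59) than in 5 of the 6 cultured arrays. Tbx21, the other Th1 marker, read 10.66 and 10.59 in Tfh and 10.89 and 9.43 in Th1. Gata3, a Th2 marker, read 10.67 and 10.52 in Tfh and 10.44 and 11.13 in Th2. Neither set its type clearly apart from Tfh. The summed signal of 8 granulocyte markers, on the log2 scale, was 16.14 and 16.09 in the Tfh arrays, 11.87 in Th2 replicate 1, 7.46 in Th17 replicate 1 and 5.44 to 5.53 in the other 4, and Ngp, a granule protein of neutrophils, read 13.13 and 13.02 in Tfh and 2.12 to 4.68 in culture. The sum of 7 T cell markers was 16.07 to 16.13 in Tfh and 14.87 to 15.57 in culture. The 12 markers of macrophages and dendritic cells summed to 12.75 and 12.78 in Tfh and to 7.23 to 14.42 in culture, and the 6 of B cells to 9.83 and 9.85 against 5.73 to 10.20. The 4 erythroid markers summed to 4.11 to 4.51 on all 8 arrays, and the 4 of CD8 and NK cells to 8.15 and 8.18 in Tfh and 6.70 to 11.38 in culture. The part of these other cells in the differences described next was not tested, and in such mixed samples fewer cells of a type cannot be told from less RNA per cell.

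The sorted Tfh samples gave a lower signal for a group of hypoxia-response and glycolysis genes than the samples cultured as Th1, Th2 or Th17. Compared with the mean of the cultured types, 10 of 35 genes were called lower: Ak4, Vegfa, Aldoc, Ero1l, Bnip3, P4ha2, Hk2, Ankrd37, Tpi1 and Pgk1. That is 28.6%, beside a background of 6.66% of all tested genes called lower. This share counts Ak4, Vegfa and P4ha2, which passed the filter through the cultured arrays alone, and so is not independent of the filter. A call required limma's Benjamini-Hochberg adjusted p under 0.05 over all tested genes and a difference of at least 1 log2 unit. All 10 were also called after both other scalings, where the background in all 3 was 6.63%. Both other scalings moved Tfh down relative to culture, which favours lower calls and works against higher ones. Over all tested genes 741 of 745 lower calls held in all 3 scalings, but only 1420 of 4887 higher calls. That all 10 held therefore adds little. On the deposited scale 4 genes were called higher (Pfkfb4, Pfkfb3, Hk1 and Eno2; 11.4%, beside a background of 43.7%), and none of them held in all 3 scalings (background 12.7%). The split of calls moved with scaling: bringing the arrays to the same median gave 1 higher and 20 lower (backgrounds 14.8% and 28.9%), and quantile normalization gave 0 and 19 (15.7% and 22%). For the 10 called lower, the differences ran from -6.55 to -2.75 with medians made equal and from -5.65 to -1.97 under quantile normalization, against -5.35 to -1.55 as deposited. On the deposited values the 2 Tfh arrays lay below all 6 cultured arrays for 13 of the 35 (37.1%; background 13.8%) and above them all for 6 (background 60.5%). The median difference over the 35 was -0.20, or -1.04 relative to the median gene, and 30 of the 35 lay below the median gene. Among genes of like mean signal, 8 of 8 with a mean of 6 to 8 and 9 of 11 with a mean of 8 to 10 were below the median of their range, as were 5 of 5 at 10 to 12, 5 of 5 at 12 to 14, 2 of 3 over 14 and 1 of 3 under 6.

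**Figure D1:**
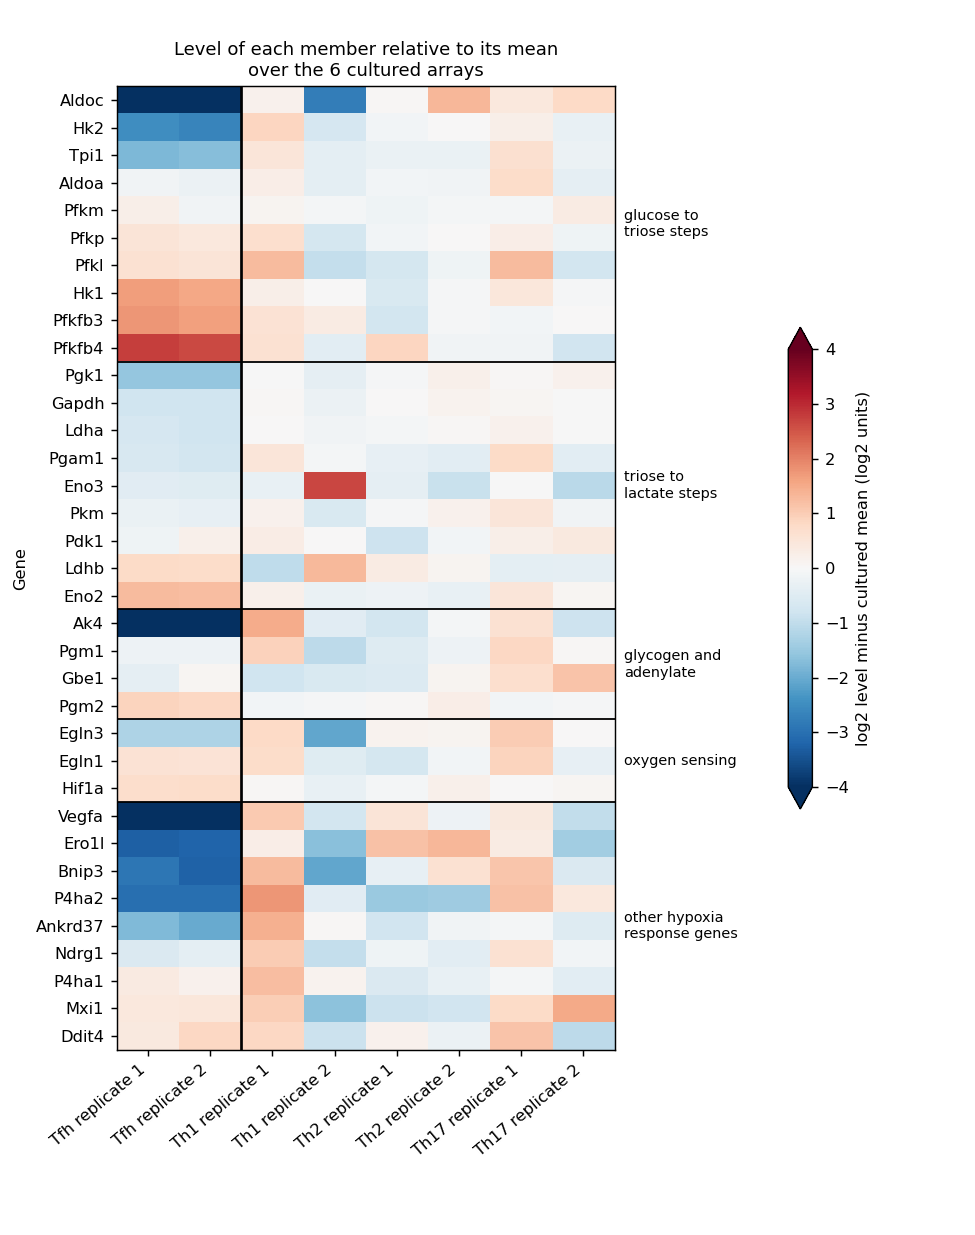
Level of each of the 35 genes on each of the 8 arrays, as the deposited log2 value minus the gene's mean over the 6 cultured arrays; rows are grouped by role and the colour scale ends at 4 units either way. In the Tfh columns Aldoc, Ak4 and Vegfa are darkest blue, at differences of -4.08, -5.35 and -4.90, and Pfkfb4 is darkest red, at 2.71; 18 of the 35 genes are more than 1 unit higher in Th1 replicate 1 than in Th1 replicate 2.

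Of 10 genes from glucose to the triose phosphates, 3 were called lower in Tfh (30%, beside 6.66% of all tested genes) and 3 higher on the deposited values (30%, beside 43.7%). The lower calls held in all 3 scalings and the higher calls did not, a split favoured by the downward move of Tfh in both other scalings. Hk2, the inducible hexokinase, read 8.92 and 8.75 in Tfh, 12.25 and 10.72 in Th1, 11.28 and 11.42 in Th2, and 11.63 and 11.12 in Th17. Every cultured array was above both Tfh arrays, and the difference was -2.57 log2 units (SE 0.40, limma's adjusted p 0.00187), a 5.94-fold lower signal; it was -3.76 in both other scalings. Hk1, the hexokinase most tissues express, went the other way as deposited, at 11.26 and 11.14 in Tfh and 8.98 to 10.04 in culture. Its difference of 1.62 (SE 0.21, limma's adjusted p 0.000863) shrank to 0.43 with medians made equal and to 0.75 under quantile normalization, and was called in neither. A second Hk1 probe set gave 0.77 as deposited.

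Aldoc, one of the aldolases that cleave the doubly phosphorylated sugar, read 5.43 and 5.27 in Tfh, 9.59 and 6.67 in Th1, 9.48 and 10.74 in Th2, and 9.86 and 10.21 in Th17. Th1 replicate 2 lay far below the other cultured arrays, though still above Tfh. The difference was -4.08 (SE 0.78, limma's adjusted p 0.00439), a 16.9-fold lower signal, while a second Aldoc probe set gave -0.72 and the mean of both -2.40, still called. Aldoa, the aldolase of most tissues, differed by -0.19 (SE 0.31) and was called lower only with medians made equal (-1.38). Tpi1, which interconverts the triose phosphates, read 11.28 and 11.36 in Tfh, 13.56 and 12.68 in Th1, 12.80 and 12.81 in Th2, and 13.72 and 12.83 in Th17. No cultured array overlapped Tfh, and Tpi1 was lower in Tfh (a difference of -1.75, SE 0.31, limma's adjusted p 0.00312); its other probe sets gave -1.94 and -1.49, and the other scalings -2.94 and -2.44.

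Phosphofructokinase, the committed step, had no subunit called on the deposited values. Pfkp, its platelet-type subunit, read 11.99 and 11.89 in Tfh, 12.16 and 10.77 in Th1, 11.38 and 11.50 in Th2, and 11.76 and 11.31 in Th17. Th1 replicate 1 was above Tfh and the other cultured arrays below it; the difference of 0.46 (SE 0.36) was not called, and other probe sets of the gene ran from -1.08 to 0.71. The Pfkl subunit differed by 0.56 and was not called in any of the 3 scalings. Pfkm differed by 0.05 as deposited, and was called lower with medians made equal (-1.14) and under quantile normalization (-1.57). Pfkfb3 and Pfkfb4 make and break the sugar phosphate that activates phosphofructokinase. Pfkfb4 lay at 6.38 and 6.23 in Tfh and at 2.83 to 4.45 in culture, a difference of 2.71 (SE 0.38, limma's adjusted p 0.00128) that was 1.51 and still called with medians made equal, and 1.21 and not called after quantile normalization. Pfkfb3 lay at 9.83 and 9.73 in Tfh and at 7.34 to 8.65 in culture, a difference of 1.70 that was called on the deposited scale alone. A second Pfkfb3 probe set gave 0.07.

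Of 9 genes from the triose phosphates to lactate, Pgk1 was called lower and Eno2 higher (11.1% each, beside 6.66% and 43.7% of all tested genes). Pgk1, the kinase of the first ATP-yielding step, read 12.83 and 12.84 in Tfh, 14.37 and 14.01 in Th1, 14.35 and 14.58 in Th2, and 14.43 and 14.57 in Th17. The cultured arrays lay within 0.57 log2 units of each other and none overlapped Tfh. The difference was -1.55 (SE 0.12, limma's adjusted p 0.000135), a 2.93-fold lower signal, with -2.75 at equal medians and -1.97 under quantile normalization, and the gene's other probe sets gave -1.62 and -1.04. Ldha, the lactate dehydrogenase subunit of glycolytic cells, read 13.71 and 13.59 in Tfh, 14.40 and 14.24 in Th1, 14.30 and 14.41 in Th2, and 14.54 and 14.37 in Th17. All cultured arrays were above Tfh, but the difference of -0.73 (SE 0.09, limma's adjusted p 0.00079) was under the minimum of 1 unit as deposited, as was that of Gapdh, -0.78 (SE 0.10, limma's adjusted p 0.000736). Ldha was called lower in both other scalings (-1.92 with medians made equal and -1.07 under quantile normalization), and Gapdh with medians made equal (-1.98) but not under quantile normalization (-0.95). Gapdh was at 14.41 on both Tfh arrays and at 14.96 to 15.35 in culture. The control probe sets at the 3' end of Gapdh exceeded those at the 5' end by 0.24 and 0.15 in Tfh and by -0.23 to -0.13 in culture, a gap in RNA ends whose part in the Gapdh difference was not tested; for Actb the same gap was 0.42 to 0.61 on all 8 arrays.

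Pkm, pyruvate kinase, read 13.13 and 13.08 in Tfh, 13.56 and 12.78 in Th1, 13.34 and 13.56 in Th2, and 13.87 and 13.26 in Th17. Th1 replicate 2 was below Tfh and the other cultured arrays above it, and the difference of -0.29 (SE 0.25) was not called as deposited or under quantile normalization (-0.70) but was with medians made equal (-1.48). Pdk1, a kinase that switches off pyruvate dehydrogenase and so keeps pyruvate from the mitochondria, read 9.73 and 10.11 in Tfh, 10.21 and 9.91 in Th1, 9.07 and 9.80 in Th2, and 10.13 and 10.31 in Th17. The groups overlapped, with a difference of 0.01 (SE 0.23) on the deposited scale. After quantile normalization it was -1.07 and was called lower, as it was after the median shift. Other probe sets of Pdk1 ran from 0.07 to 2.02 as deposited. Eno2, the neuronal enolase, was the single gene of these steps called higher, by 1.26 (SE 0.16). Its signals were 3.97 and 3.95 in Tfh and 2.39 to 3.20 in culture, near the filter, which it passed only with the Tfh arrays. Eno3 and Ldhb were not called in any of the 3 scalings, at -0.47 and 0.75 as deposited. Pgam1, the mutase before enolase, was -0.70 and not called as deposited, and was called lower in both other scalings (-1.89 and -1.15).

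**Figure D2:**
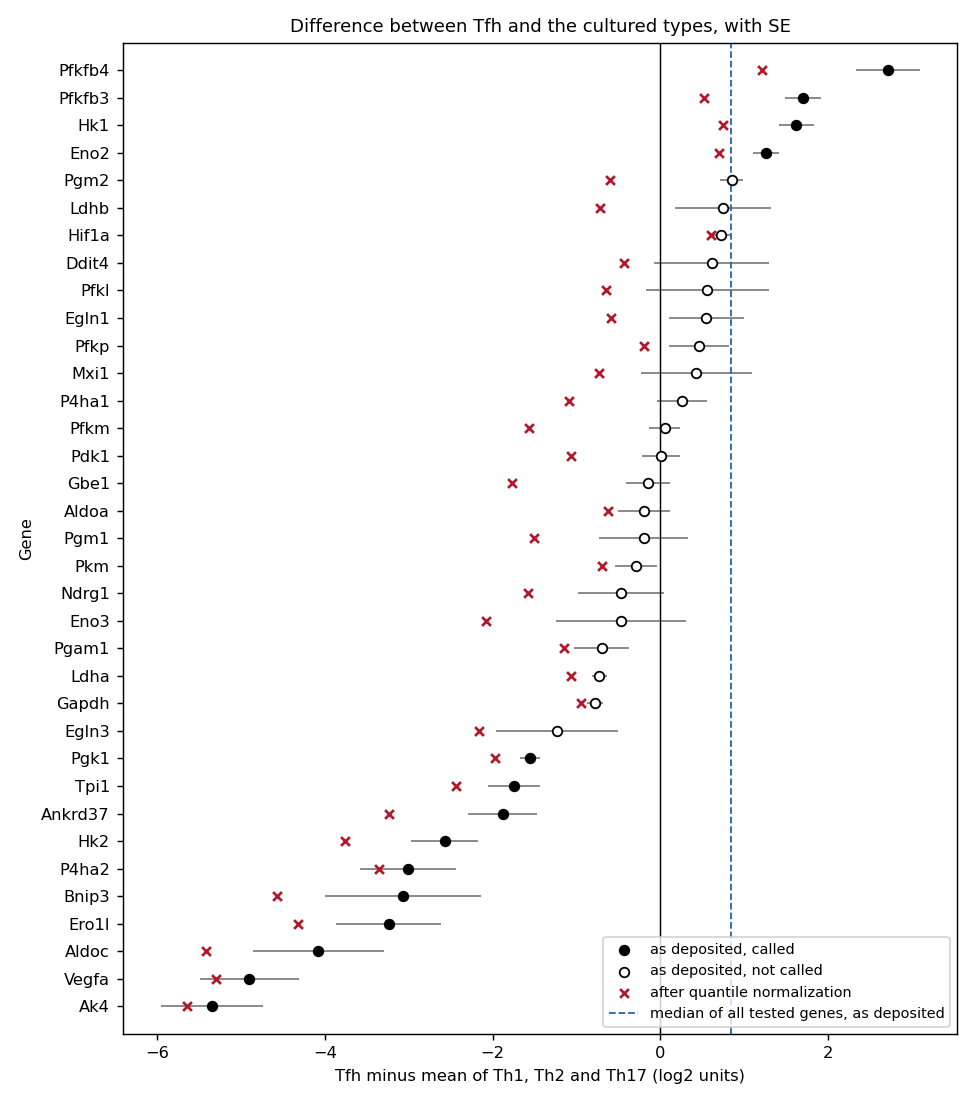
Difference between Tfh and the mean of the cultured types for each of the 35 genes, in log2 units; circles are deposited values with bars of 1 SE, filled where called, crosses are values after quantile normalization, and the dashed line is the median of all tested genes at 0.84. Ak4, Vegfa and Aldoc lie farthest to the left by either scaling, and the 4 filled circles on the right drop to between 0.52 and 1.21 after quantile normalization.

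Other genes known to respond to hypoxia gave the highest share of lower calls among the role groups. Of 9 genes, 5 were lower (55.6%, beside 6.66% of all tested genes) and 0 higher (beside 43.7%). Vegfa and P4ha2, which are among the 5, passed the filter through the cultured arrays alone, so this share is not independent of the filter. Their median was -2.72 relative to the median gene. Vegfa, the growth factor of blood vessels, read 2.80 and 2.79 in Tfh, 8.74 and 6.95 in Th1, 8.21 and 7.48 in Th2, and 8.10 and 6.71 in Th17. All 6 cultured arrays stood apart from Tfh, with a difference of -4.90 (SE 0.59, limma's adjusted p 0.000655), a 29.9-fold difference, and a second probe set gave -3.51. Ero1l, an oxidase that forms disulfide bonds in the endoplasmic reticulum, read 9.18 and 9.24 in Tfh, 12.70 and 10.76 in Th1, 13.61 and 13.77 in Th2, and 12.77 and 11.06 in Th17. Both Th2 arrays were above every other array and Tfh was below all of them; the difference was -3.24 (SE 0.63, limma's adjusted p 0.00465), or 9.45-fold, and other probe sets gave -2.53 and -1.90.

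P4ha2, a subunit of the hydroxylase that matures collagen, read 2.33 and 2.31 in Tfh, 7.11 and 4.87 in Th1, 3.85 and 3.92 in Th2, and 6.51 and 5.75 in Th17. Th2 lay between Tfh and the other cultured types, and the difference from the cultured mean was -3.01 (SE 0.57, limma's adjusted p 0.00434). Its relative P4ha1 differed by 0.26 with 1 probe set and -1.93 with another; the first was called lower under quantile normalization (-1.09) and not otherwise. Bnip3, which helps clear mitochondria, read 6.59 and 6.26 in Tfh, 10.75 and 7.43 in Th1, 9.17 and 10.09 in Th2, and 10.59 and 8.93 in Th17. Th1 replicate 2 was the cultured array closest to Tfh. Bnip3 differed by -3.07 (SE 0.93, limma's adjusted p 0.0261), and the call was lost in 4 of 8 fits that left out an array: without Tfh replicate 1 (-3.23, limma's adjusted p 0.104), Tfh replicate 2 (-2.90, 0.132), Th2 replicate 2 (-2.91, 0.0564) or Th17 replicate 1 (-2.79, 0.0514).

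Ankrd37, an ankyrin repeat protein known as a HIF target, read 5.19 and 4.95 in Tfh, 8.38 and 6.99 in Th1, 6.20 and 6.82 in Th2, and 6.88 and 6.45 in Th17. Both Th1 arrays were above the other cultured arrays and no array overlapped Tfh. The difference was -1.88 (SE 0.41, limma's adjusted p 0.00745), with -3.07 at equal medians and -3.23 under quantile normalization, and without Tfh replicate 2 it was -1.76 and not called (limma's adjusted p 0.0627). Ndrg1, Ddit4, an inhibitor of mTOR signalling, and Mxi1, an antagonist of Myc, differed by -0.47, 0.61 and 0.43 and were not called as deposited; Ndrg1 was called lower in both other scalings (-1.67 with medians made equal and -1.58 under quantile normalization), and the other two in neither.

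Ak4, a mitochondrial adenylate kinase, was the only gene called on the deposited values among the 4 of glycogen and adenylate metabolism. It read 2.24 and 2.23 in Tfh, 9.06 and 7.14 in Th1, 6.84 and 7.52 in Th2, and 8.21 and 6.77 in Th17. The difference of -5.35 (SE 0.61, limma's adjusted p 0.000551), or 40.8-fold, placed Ak4 at rank 21 from the lowest of the 11179 tested genes, with Vegfa at rank 30. Of its 4 other probe sets, 1 gave 0.01 and the others were lower, down to -4.23; the mean of all 5 gave -2.40, still called. In Tfh the signals of Ak4, P4ha2 and Vegfa were near the low end of the array: 17.3% and 17.6%, 21.7% and 22.1%, and 39.9% and 40.7% of its probe sets read lower. No detection calls were used, so a fold against such a signal may be set by the background of the array. Gbe1, the glycogen branching enzyme, differed by -0.15 as deposited and was called lower with medians made equal (-1.34) and under quantile normalization (-1.77). Pgm1 differed by -0.20 and was called lower only under quantile normalization (-1.51), and Pgm2 by 0.85, which was under the fold minimum and turned to -0.60 after quantile normalization.

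**Figure D3:**
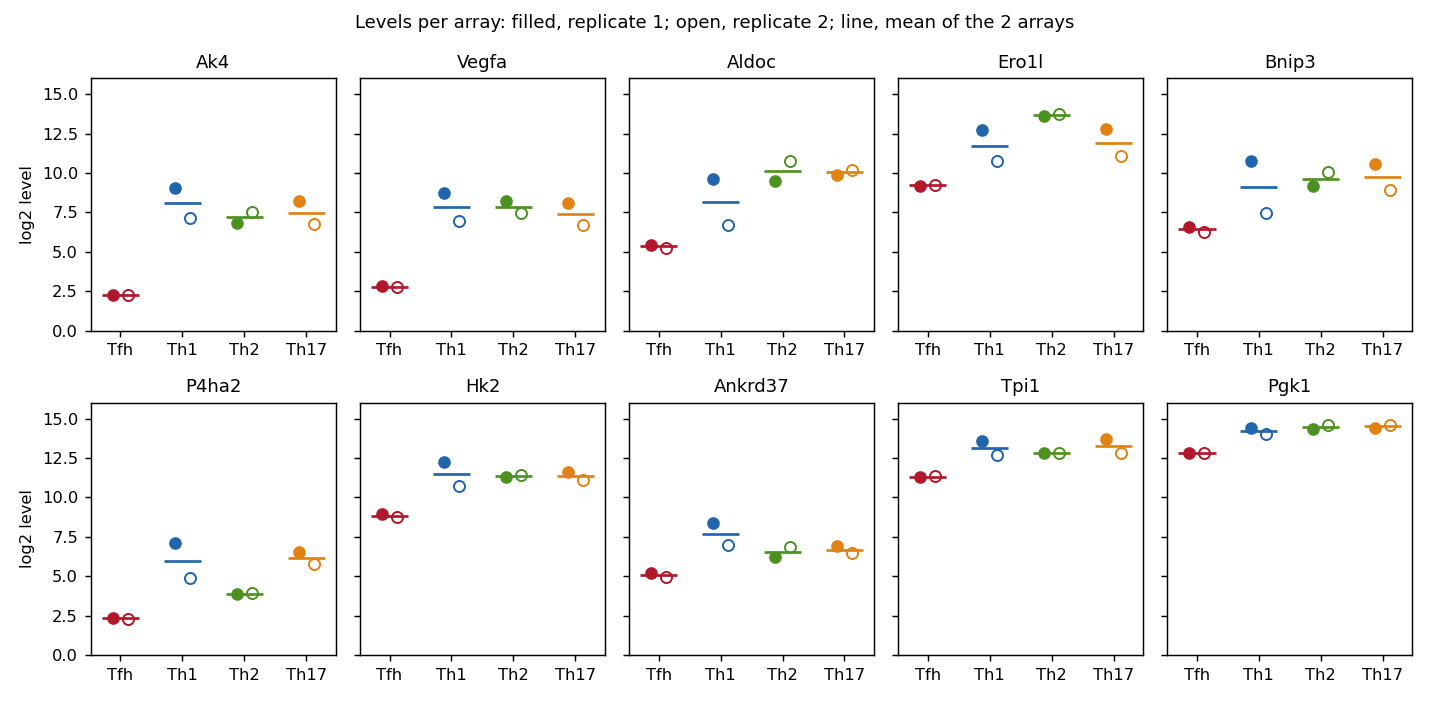
Deposited log2 level of the 10 genes called lower in Tfh in all 3 scalings, 1 panel per gene, with filled points for replicate 1, open points for replicate 2 and a line at the mean of the 2 arrays. The Tfh points lie below all 6 cultured points in every panel, and for Bnip3 the Th1 points at 10.75 and 7.43 span nearly the whole cultured range.

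No gene of oxygen sensing was called on the deposited values (0 of 3, beside 6.66% of all tested genes called lower and 43.7% higher). Hif1a read 14.77 and 14.80 in Tfh, 14.11 and 13.78 in Th1, 14.00 and 14.28 in Th2, and 14.08 and 14.15 in Th17. Both Tfh arrays were above all cultured arrays, by 0.72 (SE 0.12, limma's adjusted p 0.00284), under the fold minimum; the sign turned after the median shift (-0.47) and not after quantile normalization (0.60), and other probe sets ran from -0.16 to 1.36. Egln3, a prolyl hydroxylase that is itself known to be induced by HIF, read 10.37 and 10.36 in Tfh, 12.38 and 9.53 in Th1, 11.74 and 11.72 in Th2, and 12.60 and 11.61 in Th17. Th1 replicate 2 was below Tfh and the other 5 cultured arrays above it; the difference of -1.23 (SE 0.73) was not called as deposited but was called lower after both other scalings, and a second probe set gave 1.44. Egln1, the main hydroxylase of HIF in most tissues, differed by 0.55 and was not called.

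The promoters of the genes called lower are shown because HIF binds DNA at a short core sequence. RefSeq windows of GRCm38.p6, from 250 bases before to 50 after each start, were given for 34 of the 35 genes and were searched for ACGTG and GCGTG on either strand; CACGTG holds ACGTG on both strands and so counts on each. A gene with several starts was counted by its window with the most matches. At least 1 match was found for 31 of the 34 (91.2%), against 67.0% of 9127 tested genes and 46.7% of all 27025 genes with a window, and 2 or more for 67.6%, 38.5% and 22.9%. Hk1, Aldoa, Pkm, Vegfa and Mxi1 had matches at inner starts only, and Tpi1, Eno2 and Gbe1 had none. These shares were not matched for number of starts or base composition, so their gap is not specific to HIF. Of the 10 genes called lower, 9 had a match, and Tpi1 had none of these letters in its window. The match in Vegfa lay in the window of an inner start only. A match is a description of letters and not a binding site, and RNA levels alone do not show which factor acts on a promoter. The stretch that holds the matches before the outermost start is printed for 7 of them, 5' to 3' on the gene's strand, with each match in capitals.
Pgk1, chrX:106186940-106186983, plus strand: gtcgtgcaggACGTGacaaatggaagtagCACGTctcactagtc
P4ha2, chr11:54100807-54100869, plus strand: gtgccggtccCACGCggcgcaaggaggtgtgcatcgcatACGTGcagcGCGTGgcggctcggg
Ak4, chr4:101419205-101419267, plus strand: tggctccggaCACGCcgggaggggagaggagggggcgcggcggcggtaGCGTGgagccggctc
Aldoc, chr11:78323013-78323037, plus strand: acctctgaggGCGTGgccttaccct
Ero1l, chr14:45318621-45318710, minus strand: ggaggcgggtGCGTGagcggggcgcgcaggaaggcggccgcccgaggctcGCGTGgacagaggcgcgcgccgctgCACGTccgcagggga
Bnip3, chr7:138909527-138909633, minus strand: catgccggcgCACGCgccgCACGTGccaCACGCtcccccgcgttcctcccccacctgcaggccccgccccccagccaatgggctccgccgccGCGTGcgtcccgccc
Hk2, chr6:82774492-82774690, minus strand: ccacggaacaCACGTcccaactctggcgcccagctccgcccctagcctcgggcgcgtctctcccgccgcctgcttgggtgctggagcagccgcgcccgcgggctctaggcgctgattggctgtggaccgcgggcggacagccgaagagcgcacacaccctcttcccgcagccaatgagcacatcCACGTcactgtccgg
The printed stretch of Bnip3 holds 5 matches, those of P4ha2 and Ero1l 3 each, those of Pgk1, Ak4 and Hk2 2 each, and that of Aldoc 1.

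Tfh was also compared with each cultured type alone; these comparisons share the Tfh arrays. Against Th1, 9 of 35 genes were lower (25.7%; background 6.16%) and 4 higher (background 42.8%). Against Th2, 9 were lower (25.7%; background 6.89%) and 4 higher (background 42.8%), and against Th17 11 were lower (31.4%; background 6.17%) and 3 higher (background 41.7%). With the arrays at the same median, 19 were lower and 1 higher against Th1 (backgrounds 28.5% and 14.4%), 18 and 0 against Th2 (29.1% and 15%), and 20 and 1 against Th17 (26% and 13.5%). Quantile normalization gave 16 and 0 (21.2% and 15.6%), 13 and 2 (21.3% and 16.1%), and 18 and 1 (20.3% and 14%) in the same order. Called lower in all 3 were 8 genes (22.9%; background 3.91%): Hk2, Aldoc, Tpi1, Pgk1, Ak4, Vegfa, Ero1l and Ankrd37. Of these, Ak4 and Vegfa passed the filter through the cultured arrays alone. Called higher in all 3 were Hk1, Pfkfb3 and Pfkfb4 (8.57%; background 35.4%). The count of 8 fell to 4 when either Tfh array or either Th2 array was left out, to 5 without Th17 replicate 1, and to 4 when the Tfh arrays were averaged and counted as 1 sample, a setting under which 8 genes were still lower than the cultured mean.

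The genes outside the set of 8 differed with the partner. P4ha2 was -3.66 against Th1 and -3.81 against Th17 (limma's adjusted p 0.00531 and 0.00469) but -1.56 against Th2 (0.0964), where it was not called. Bnip3 was -3.20 against Th2 and -3.33 against Th17 and was not called against Th1 (-2.66, limma's adjusted p 0.0836), whose arrays were 10.75 and 7.43. Gbe1 was called lower on the deposited values against Th17 alone, at -1.07 (SE 0.32, limma's adjusted p 0.0289), with 6.46 and 6.91 in Tfh and 7.52 and 7.99 in Th17; it lost the call without either Tfh array (-0.85 and -1.30) or without Th17 replicate 2 (-0.84). Ero1l differed by -4.48 from Th2, -2.52 from Th1 and -2.71 from Th17, and Aldoc by -4.76, -2.78 and -4.69.

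Several calls against a single type rested on few arrays. Against Th1, Ero1l and Aldoc lost theirs without either Tfh array (Ero1l -2.49 and -2.55, Aldoc -2.87 and -2.70), without Th1 replicate 1 (-1.55 and -1.32) or without either Th2 array, and Aldoc also without either Th17 array, where the estimate stayed at -2.78 and limma's adjusted p was 0.0574 to 0.0686. Against Th2, Tpi1 lost its call without any of the Tfh or Th2 arrays (-1.53 to -1.45), and Ankrd37 and Bnip3 without any of the Tfh, Th2 or Th17 arrays (-1.75 to -1.13 and -3.66 to -2.74). Against Th17, Ankrd37 lost its call without any Tfh or Th17 array (-1.81 to -1.37), Bnip3 without any Tfh, Th2 or Th17 array (-4.16 to -2.50), and Ero1l without either Tfh array or Th17 replicate 1 (-2.73 to -1.85). Calls of Hk2, Pgk1, Ak4 and Vegfa against each type were lost in none of the fits that left out an array.

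Between the cultured types no gene of the 35 was called with limma (0 of 35 in each pair, beside backgrounds of 1.24% for Th1 against Th2, 0.143% for Th1 against Th17 and 0.671% for Th2 against Th17). At an unadjusted limma p under 0.05 there were 4, 2 and 4 genes. The share of all tested genes at that threshold was not taken, so these counts say nothing of the 35 genes as a set. P4ha2 was higher in Th1 than in Th2 by 2.10 (SE 0.70, limma's adjusted p 0.241) and lower in Th2 than in Th17, at -2.25 (SE 0.70, limma's adjusted p 0.252). Gbe1 was lower in Th1 than in Th17, at -1.61 (SE 0.32, limma's adjusted p 0.212), and Ero1l lower in Th1 than in Th2, at -1.96 (SE 0.77, limma's adjusted p 0.304); none of these passed the test. Leaving out 1 Th1 array gave calls that the full set did not: P4ha1 and P4ha2 for Th1 against Th2 without Th1 replicate 2 (1.67 and 3.22), Ldhb and Mxi1 for Th1 against Th17 without Th1 replicate 1 (1.66 and -2.78), and P4ha2 for Th2 against Th17 without either Th1 array (-2.25).

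The spread within the cultured groups was itself large for these genes, a pattern noticed after the values were seen and given without a test. In Th1 replicate 1 exceeded replicate 2 by a median of 1.03 log2 units over the 35 genes, against -0.02 over all tested genes, and 18 of 35 were higher by more than 1 unit (51.4%, against 6.80% of tested genes). All 9 other hypoxia-response genes were among them, from P4ha1 at 1.09 to Bnip3 at 3.32, as were Aldoc (2.93), Egln3 (2.85), Pfkl (2.21), Pgm1 (1.98), Ak4 (1.92) and Hk2 (1.54). Eno3 and Ldhb went the other way, at -2.96 and -2.31, and Pgk1, Ldha and Gapdh differed by 0.36, 0.16 and 0.27. Ldhb is the lactate dehydrogenase subunit of oxidative tissues and Eno3 the enolase of muscle.

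Th17 replicate 1 exceeded replicate 2 by a median of 0.51, with 10 of 35 genes more than 1 unit higher (28.6%, against 6.45%), among them Ddit4 (2.20), Pfkl (1.99), Ero1l (1.71) and Bnip3 (1.66). In Th2 the median was -0.14 with 0 of 35 more than 1 unit higher (against 3.98%), and in Tfh it was 0.02 with 0 of 35. Over the 6 cultured arrays Th1 replicate 1 was the highest for 12 of the 35 genes (against 15.6% of all tested genes) and Th17 replicate 1 for 10 (against 17.4%), and Th1 replicate 2 was the lowest for 17 (against 15.8%). Other RNAs also differed within these pairs: in Th1 replicates 1 and 2 Il4 read 6.11 and 10.60 and Gata3 4.95 and 7.74, and the summed macrophage and dendritic cell markers were 7.23 and 8.03 in Th1 and 11.32 and 8.66 in Th17. Their part in the gaps was not tested.

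**Figure D4:**
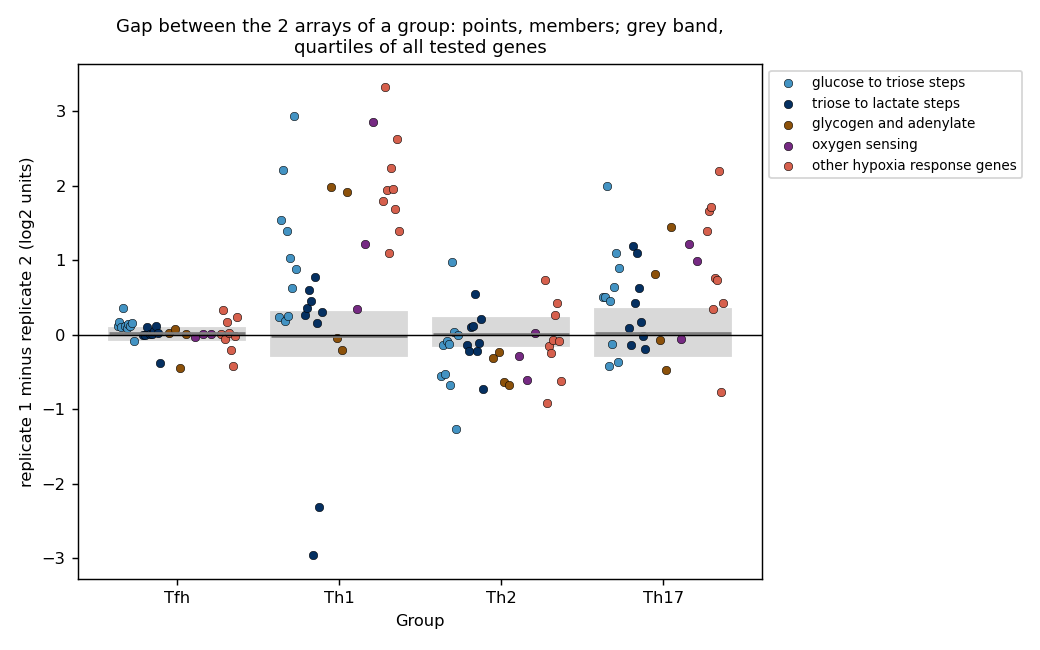
Replicate 1 minus replicate 2 in log2 units for each of the 35 genes (points, coloured by role) in the 4 groups, over a grey band from the lower to the upper quartile of all tested genes with their median as a line. The points of Th1 spread up to 3.32 and those of Th17 up to 2.20, with medians of 1.03 and 0.51, while those of Tfh stay close to 0.

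Genes of neighbouring pathways were read in the same way; 90 were listed, 83 read and 66 tested, of which 22 were called above the cultured mean in Tfh (33.3%; background 43.7%) and 11 below (16.7%; background 6.66%). In all 3 scalings 6 were higher and 11 lower (backgrounds 12.7% and 6.63%). Among 19 other genes known to respond to hypoxia 5 were higher and 6 lower. Stc2, a secreted glycoprotein, and Plod2, a hydroxylase of collagen lysines, were lower, at -3.88 and -3.45 (SE 0.63 and 0.57), whereas the nuclear receptor gene Rora was higher by 4.54 (SE 0.78), each in all 3 scalings; as deposited, Plod2 was not called against Th2 alone, nor Rora against Th17 alone. Slc2a1, the main glucose transporter of activated T cells, differed by -1.79 (SE 0.41, limma's adjusted p 0.00946), and Slc16a3, a lactate exporter, by 0.40 (SE 0.87), which was not called.

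The shares of all tested genes called on the deposited values, 43.7% higher and 6.66% lower, stand beside each count that follows. HIF subunits and their controls were called higher in 7 of 13 (53.8%) and lower in 1, and none of the 7 held in all 3 scalings. Hif1an, which hydroxylates HIF, and Siah1a, a ubiquitin ligase, differed by 1.99 and 1.97. Epas1, another oxygen-sensitive HIF subunit, read 8.77 and 8.76 in Tfh, 3.68 and 3.60 in Th1, 11.42 and 13.07 in Th2, and 3.52 and 2.82 in Th17. Its difference of 2.41 from the cultured mean therefore joins opposite directions: Epas1 was called higher than in Th1 (5.12) and Th17 (5.59) and lower than in Th2 (-3.48, limma's adjusted p 0.00251), each in all 3 scalings. Glycogen metabolism had 5 of 8 higher (62.5%) and 0 lower. Pygl, the liver glycogen phosphorylase, and Phkg2, a subunit of its kinase, were higher by 2.88 and 2.28 in all 3 scalings, and Pygb, the brain isoform, by 2.10, a call lost after the median shift. Of 7 other glycolysis genes 3 were higher (42.9%) and 1 lower: Galm, which flips glucose between its ring forms, was higher by 2.89 in all 3 scalings, Bpgm by 2.16 as deposited only, and G6pc3, a glucose phosphatase, was lower, at -1.87. The pentose phosphate pathway had 0 of 9 higher and 1 lower (H6pd, -1.04), and genes of pyruvate entry to mitochondria had 2 of 10 higher and 2 lower. The latter were Pcx, pyruvate carboxylase (-1.70), and Pdp1, a phosphatase that switches pyruvate dehydrogenase on (-1.25), while Pdp2, its relative, was higher by 1.75 as deposited only.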

How the data were processed

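Per the labels' protocols total RNA was labelled by the standard Affymetrix reaction. The authors deposited log2 signals, made with GCRMA per the submitters' processing notes; its version and the grouping of arrays in it are not given in the sources used here. Precision is limited by the number of arrays.

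Of 45101 probe sets, the platform annotation gave 34958 a single symbol, 932 several and 9211 none. Each of 18194 genes was read by its probe set of highest mean signal. The manufacturer's control probe sets stood in only for a gene with no other, a rule set after the files were seen. A gene was tested (11179 were) if its signal exceeded 3.13, the 50th percentile of the whole table, in 2 or more arrays.

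The two-sided test was limma 3.58.1 (R 4.3.3) with a mean for each group, all 8 arrays in a single fit and a variance trend (residual df 4, prior df 1.78). P-values were adjusted over the tested genes by Benjamini-Hochberg, SEs are moderated, and a call needed an adjusted p under 0.05 with at least 1 log2 unit. The 3 scalings were the deposited values, arrays shifted to equal medians of tested genes, and quantile normalization of all probe sets, chosen over that of the gene table after counts from the latter had been seen. Further alternatives were no filter, averaged probe sets, no variance trend, no fold minimum, each array left out, the replicate block, and averaged Tfh arrays.

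All arrays are printed for genes called against the cultured mean in all 3 scalings, genes called between cultured types, and Hk2, Pfkp, Pkm, Ldha, Pdk1, Hif1a, Egln3, Vegfa and Bnip3. From each related list the 3 called genes with the largest differences are named; Slc2a1 and Slc16a3 were added after their values were seen. The members and lists were chosen with earlier results of these data known.

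Tested on simulated data of 11179 genes with 100 changed at each size, the procedure found 31% of changes of 1 log2 unit and 89% of changes of 2 for Tfh against the cultured mean, and 17% and 80% for Th1 against Th2. Unlike the data, the simulated arrays had the same spread in every group, no array shift and few changed genes. These rates may therefore not hold for the real comparisons. Figures were made in Python 3.11.15 using matplotlib 3.10.9.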

Additional observations from a re-analysis of the deposited data

How the results depend on the processing

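Counts of genes called higher or lower in Tfh depended most on scaling. Quantile normalization gave 0 higher and 19 lower against the cultured mean, 0 and 16 against Th1, 2 higher against Th2, 1 and 18 against Th17, and 0 higher in all 3. Shifting arrays to the same median gave 1 and 20, 1 and 19, 0 and 18, 1 and 20, and 0 and 16 in the same order. Quantile normalization of the gene table, run as well, gave 1 and 17 against the cultured mean (18.5% and 18.3% of all tested genes). It gave 0 and 15 against Th1 (17.8% and 18.2%), 3 and 11 against Th2 (19.2% and 17.5%), and 1 and 16 against Th17 (16.6% and 16.5%). The 10 genes called lower in all 3 scalings were also lower here. Averaging a gene's probe sets left 2 higher against Th1, 1 against Th17 and 1 in all 3. Without a minimum fold 6 were higher against Th17 and 6 in all 3. With the Tfh arrays averaged as 1 replicate 7 were lower against Th17 and 4 in all 3. The cause of these changes was not tested.

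Leaving out each array in turn, with a lone array assumed to vary like the other groups, gave 4 to 5 higher and 8 to 11 lower against the cultured mean, 4 to 7 and 7 to 12 against Th1, 4 to 5 and 6 to 11 against Th2, 3 to 4 and 7 to 12 against Th17, and 3 to 4 and 4 to 11 in all 3. It gave 0 to 2 calls for Th1 against Th2, 0 to 2 for Th1 against Th17 and 0 to 1 for Th2 against Th17.

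The labels tie same-numbered replicates to nothing shared, and not every pair of groups correlated above 0.1, so the numbers were not taken to pair the samples: the correlation of the gaps between replicates 1 and 2 across genes was 0.25 for Th1 with Th17, 0.27 for Th2 with Th17 and 0.04 or less for the other pairs. With the replicate block 4 genes were higher and 10 lower against the cultured mean, 4 and 8 against Th1, 4 and 8 against Th2, 3 and 11 against Th17, and 6 lower in all 3, with 0 calls between cultured types.

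Some genes that were not called on the deposited values changed sign. After quantile normalization and the median shift the differences from the cultured mean were -0.65 and -0.64 for Pfkl, -1.57 and -1.14 for Pfkm, -0.19 and -0.73 for Pfkp, -0.72 and -0.44 for Ldhb, -1.07 and -1.18 for Pdk1, -0.60 and -0.34 for Pgm2, -0.59 and -0.64 for Egln1, -1.09 and -0.93 for P4ha1, -0.43 and -0.58 for Ddit4 and -0.73 and -0.76 for Mxi1; Hif1a was -0.47 after the median shift. With probe sets averaged Pgm1 was 0.55, Egln3 0.10, P4ha1 -0.84 and Mxi1 -0.09. With an array left out Pfkm ran from -0.13 to 0.23, Eno3 from -0.96 to 0.03, Pdk1 from -0.18 to 0.20, Pgm1 from -0.53 to 0.13, Gbe1 from -0.38 to 0.07 and Mxi1 from 0 to 0.87. The 10 genes called lower kept their direction in every alternative run. Of 21 genes with several probe sets, 9 had one of opposite sign. The count of genes more than 1 unit higher in replicate 1, in settings chosen after seeing the data, was 17 to 18 for Th1, 10 for Th17 and 0 to 1 for Th2 (1 after quantile normalization).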
